A study of Mus musculus with 9 samples.

Results

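The genes described here are 33 genes that carry folate, methionine and glycine one-carbon metabolism, taken by symbol from a list of known roles. The rule uses no measured value, but the list was chosen with earlier results of these data known. All 33 had a row among the 24330 genes measured in whole mouse embryos at E9.5. They hold 8 roles: folate uptake and transport (5 genes), folate polyglutamylation (2), cytosolic folate interconversion (5), mitochondrial folate interconversion (5), nucleotide synthesis (3), glycine cleavage (4), the methionine cycle (7) and the use of choline-derived one-carbon units (2).

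Folate is taken into cells by receptors and carriers, kept there as polyglutamates, and used as the carrier of single carbon units. Serine and glycine give these units to folate in mitochondria and cytosol, and the units are spent on purines, on thymidylate and on the remethylation of homocysteine to methionine, from which S-adenosylmethionine, the general methyl donor, is made. Maternal folate supply and glycine cleavage are both known to bear on closure of the neural tube.

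The study compared embryos that lack SR-B1, the lipoprotein receptor encoded by *Scarb1*, with and without failed closure of the cephalic neural tube. Matings between heterozygotes for a constitutive null *Scarb1* allele, on a mixed C57Bl/6J x 129S2 background, gave wild-type embryos (WT), homozygous knockouts with a closed tube (KO-N) and homozygous knockouts with an open one (KO-NTD). Each of the 3 groups had 3 samples, each a pool of 3 whole embryos labelled female, from dams on a control diet. The null allele is constitutive and not limited to a tissue, and a pool cannot show how single embryos differ.

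Expression was given as FPKM (fragments per kilobase of transcript length, normalised for library size), as 1 value per group with confidence bounds that the authors' software set 2 standard deviations to each side. With 1 value per group the spread between pools cannot be seen, and no test was made. Differences are on the log2(FPKM + 0.1) scale, which understates the change of low genes, and their 95% intervals come from the bounds. Genes that averaged 0.1 FPKM or more over the groups compared were read, and a gene is called higher or lower where that difference reached 1.5-fold. The read depth behind the values is not in the tables used here. The table of all genes held KO-NTD, KO-N and a column headed Control, which is not taken to be WT. Of 833 genes that also had a WT value in a comparison table, 62 differed from Control by more than 1.2-fold, and *Scarb1* itself was at 17.1 FPKM in WT, 12.4 in Control, and 3.34 and 3.12 in the KO-N and KO-NTD groups. Transcripts of 4 Y-linked genes were above 0 in all 3 columns, against the female label, with summed levels of 11.5 FPKM (KO-NTD), 12.2 (KO-N) and 22.7 (Control). Neural genes were present in every column, for example *Sox2* at 41.5 FPKM (KO-NTD), 55.9 (KO-N) and 52.6 (Control).

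Between KO-NTD and KO-N embryos, 29 of the 32 one-carbon genes that passed the minimum stayed within 1.5-fold on the log2(FPKM + 0.1) scale. Without the 0.1 added, *Sardh*, the sarcosine dehydrogenase gene, was 1.65-fold higher in KO-NTD embryos and would be called as well. The folate receptor gene *Folr1* and the dimethylglycine dehydrogenase gene *Dmgdh* were higher in KO-NTD embryos, and the betaine-homocysteine methyltransferase gene *Bhmt* was lower. These are 2 of 32 higher, where 2.67% of all 16047 genes were, and 1 of 32 lower, where 2.40% were. Only *Folr1* had bounds that did not overlap between the groups, which was the case for 2.11% of all genes. The median log2 difference of the 32 genes was 0.04, beside -0.02 for all genes, with 21 values above 0 and 11 below. The remaining gene, *Ftcd*, a formiminotransferase of histidine breakdown, had a mean of 0.0998 FPKM and was not read further.

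**Figure D1:**
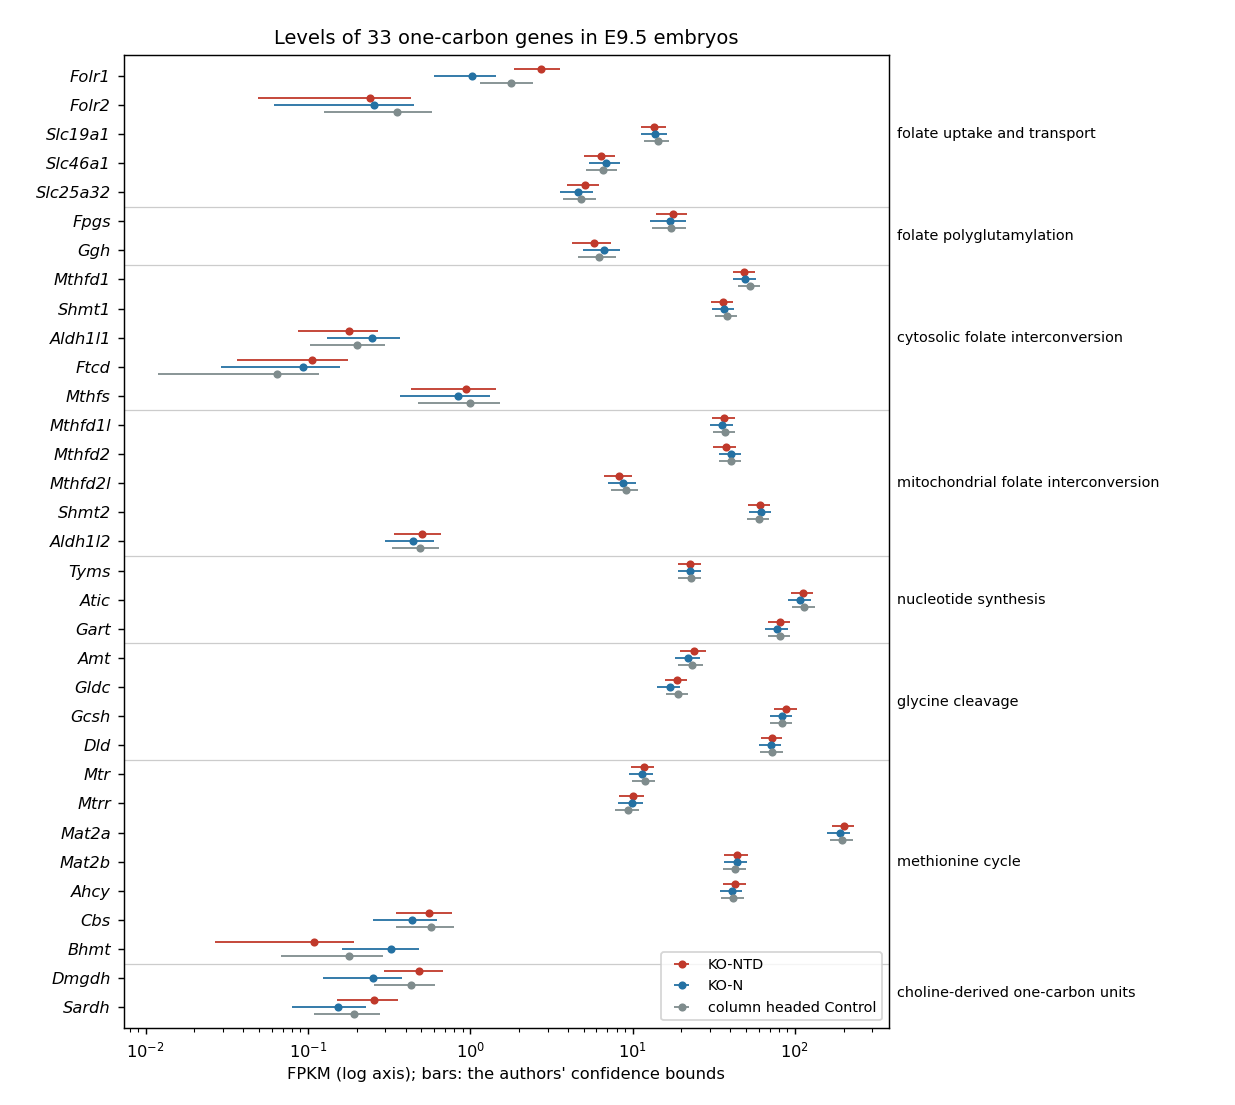
Level of each of the 33 genes in FPKM (log axis), grouped by role, in KO-NTD (red), KO-N (blue) and the column headed Control (grey); points are the group values and bars the authors' confidence bounds. Levels run from 0.0643 FPKM for *Ftcd* in Control to 201 FPKM for *Mat2a* in KO-NTD, and the bars of the KO groups separate only for *Folr1*.

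The plot of levels by role shows that the 33 genes split into an abundant core and a low fringe. The core had 23 genes that averaged 4 FPKM or more in the KO groups, and the fringe had 10, all under 2 FPKM. All 3 called genes lay in the fringe. The line at 4 FPKM was not part of the plan. Over the core the largest difference in either direction was 0.21 in size. The median size was 0.0481, against 0.0697 over all 9715 genes of the whole table at 4 FPKM or more. Those genes were not matched to the core in level, and 18 of the 23 core genes were at 10 FPKM or more. Whether the core is steadier than other genes of its level was therefore not tested. None of the 23 was called in either direction, where 2.15% of the 9715 were. The 95% interval stayed within 1.5-fold for 22 of the 23, where 82.8% of the 9715 genes did. Of all 32 genes read, 22 had such an interval, beside 55.8% of the 16047. None of the 9 low genes read did so. The bounds lay 15.3 to 25.4% from the value in the 18 genes of at least 10 FPKM, and 31.2 to 79.6% from it in these 9, so the low genes could differ by more than 1.5-fold without being separated here.

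**Figure D2:**
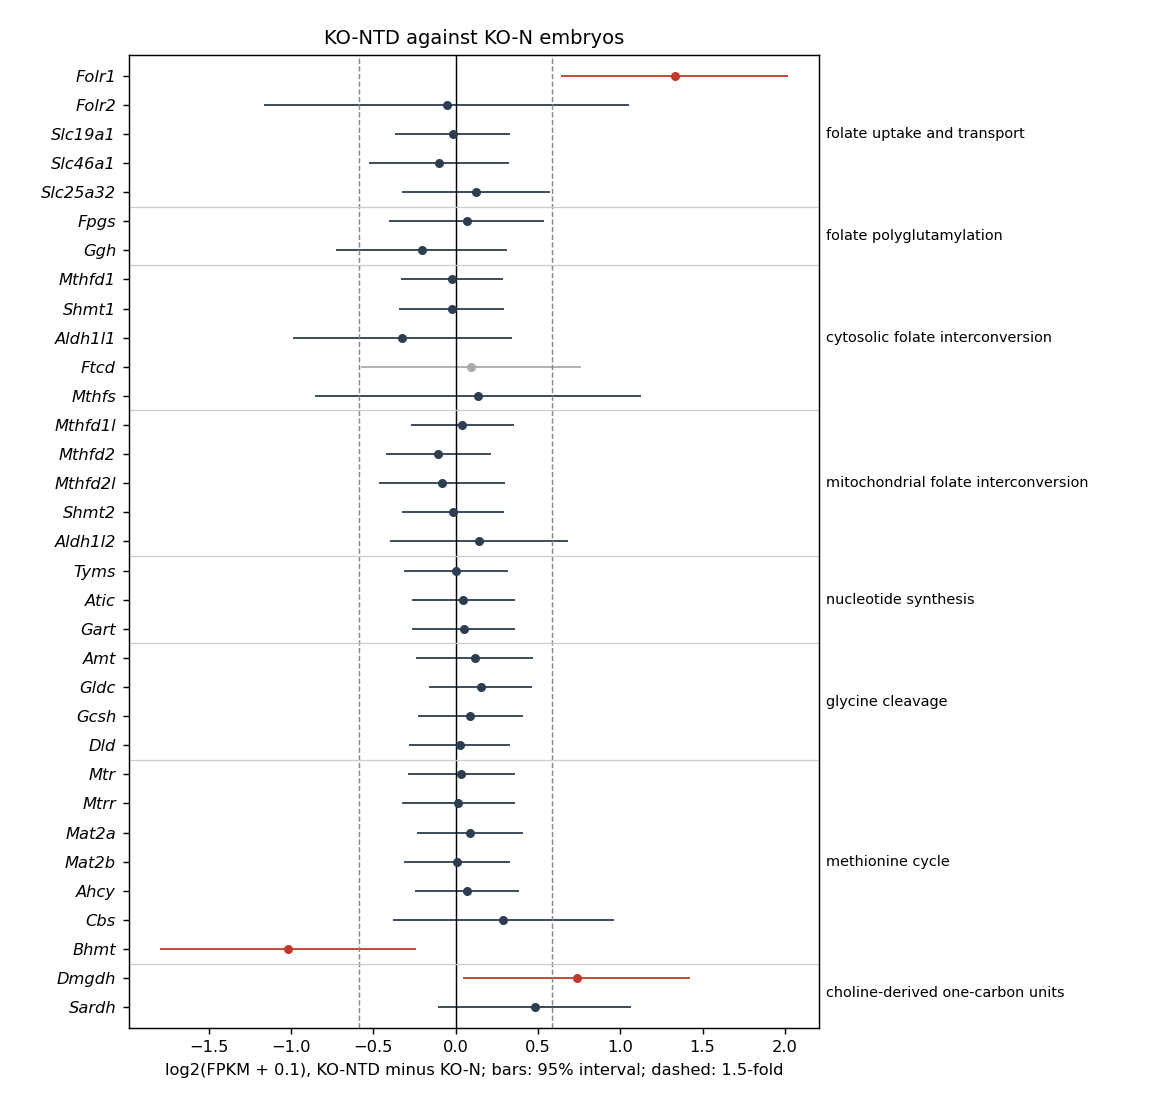
Difference of KO-NTD minus KO-N for each gene on the log2(FPKM + 0.1) scale, with 95% intervals from the authors' bounds as bars and dashed lines at 1.5-fold; called genes are red and *Ftcd*, under the minimum, is grey. *Folr1* lies at 1.33, *Dmgdh* at 0.73 and *Bhmt* at -1.02, while the genes that averaged 4 FPKM or more lie between -0.21 and 0.15.

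Folate uptake and transport held the one difference with separated bounds. *Folr1* encodes the receptor that binds folate with high affinity and takes it in by endocytosis, and is known for its expression in the visceral yolk sac and the neural folds. It lies on the minus strand at chr7:101858331-101870788 (mm10). *Folr1* was at 2.72 FPKM (KO-NTD, bounds 1.87 to 3.57), 1.02 (KO-N, 0.595 to 1.45) and 1.79 (Control, 1.15 to 2.43). Its level was thus 2.66-fold higher in KO-NTD relative to KO-N embryos, with Control between them and its bounds overlapping both, and the log2 difference was 1.33 (95% interval 0.64 to 2.02). A WT value stood in the authors' table of KO-N against WT, which holds only genes they selected, and *Folr1* was the only one of the 33 with such a value. There it was 1.92 FPKM in WT and 1.03 in KO-N embryos, a ratio of 1.87 without error bounds. The order from low to high was KO-N, Control, WT and KO-NTD, and of the 3 with bounds only KO-N and KO-NTD were separated.

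Its neighbour *Folr2*, which encodes a second glycosylphosphatidylinositol-anchored folate receptor known from macrophages and placenta, lies 1140 bases from *Folr1* on the same strand. *Folr2* was at 0.241 FPKM (KO-NTD), 0.255 (KO-N) and 0.355 (Control). The 3 levels overlapped widely, with a log2 difference of -0.06 (95% interval -1.16 to 1.05) between the KO groups. *Folr1* exceeded *Folr2* in FPKM by 11.3-fold (KO-NTD), 4.02-fold (KO-N) and 5.04-fold (Control). None of the 719 stretches of 50 bases in the longest reading frame of *Folr1* occurs in that of *Folr2* (GENCODE M21), and the longest run they share, printed to show how short it is with no letter in capitals, is this one.

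Folr1 and Folr2, longest shared run: tgcatggatgccaaacacca

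Markers of visceral endoderm, the yolk sac epithelium in which *Folr1* is known to be expressed, moved in the same direction, although the study's methods describe yolk sacs as dissected separately from the embryos. Of 16 such genes, 15 passed the minimum and 13 were higher in KO-NTD relative to KO-N embryos, none was lower, and 14 had separated bounds, with a median log2 difference of 2.82. Their summed level was 175 FPKM (KO-NTD), 38.9 (KO-N) and 83.3 (Control), and none was at 0, the defining genes included. *Ttr*, the thyroxine carrier transthyretin, was at 28.1, 3.85 and 11.03 FPKM in that order of groups. *Cubn*, the endocytic receptor cubilin, was at 6.26, 0.509 and 2.99 FPKM. The order of the groups was the same as for *Folr1*, and the size of the difference in *Folr1* lay below the median of these markers. Neuronal markers went the other way, with 8 of 10 lower in KO-NTD embryos (median log2 difference -1.06, summed levels 34.8, 58.1 and 52.0 FPKM), as did 5 of 10 neural progenitor markers (median -0.58, sums 150, 215 and 206) and 3 of 10 primitive erythroid markers (median -0.51, sums 3056, 4678 and 5564). Over all genes, 2.67% were higher, 2.40% were lower and 2.11% had separated bounds. The marker lists were written with earlier results of these data known. Several of the endoderm genes are ones that the paper itself reports as raised in KO-NTD embryos. The marker counts are therefore a description and no independent support. The paper's genes of interest include *Apoa1*, *Apob*, *Amn*, *Cubn* and *Lrp2* of this list. From a public expression atlas, the paper places almost all its genes of interest in the neural tube or mesenchyme beside it, before closure. The part of any of these tissues in the values of *Folr1* or of the other genes was not tested. In whole embryos, fewer cells of a type and less RNA per cell cannot be told apart.

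None of the folate carriers was called. *Slc19a1*, the reduced folate carrier, was at 13.6 FPKM (KO-NTD), 13.8 (KO-N) and 14.4 (Control). *Slc46a1*, the proton-coupled folate transporter, was at 6.42, 6.89 and 6.59 FPKM, and *Slc25a32*, which brings folate into mitochondria, at 5.07, 4.64 and 4.83 FPKM. Their log2 differences between the KO groups were -0.02, -0.10 and 0.13, and each 95% interval stayed within 1.5-fold. Among the genes of polyglutamylation, the synthase *Fpgs* was at 17.9, 17.1 and 17.2 FPKM in KO-NTD, KO-N and Control. *Ggh*, the lysosomal hydrolase that removes the glutamates, was at 5.78, 6.68 and 6.23 FPKM. The log2 difference of *Ggh* was -0.21 (95% interval -0.73 to 0.31), the largest in size in the abundant core and the only one there whose interval ran past 1.5-fold. Exons of 5 of the 33 genes (*Fpgs*, *Aldh1l2*, *Mthfs*, *Shmt1* and *Shmt2*) overlap those of another coding gene, those of *Fpgs* with *Eng*, an endothelial gene on the opposite strand, and the sources used here do not say whether strand was used in counting.

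In the cytosol, the level of the trifunctional enzyme *Mthfd1*, which interconverts the formyl, methenyl and methylene forms of folate, was 48.9 FPKM (KO-NTD), 49.6 (KO-N) and 52.7 (Control). *Shmt1*, the cytosolic serine hydroxymethyltransferase, was at 36.0, 36.6 and 38.2 FPKM. Both differed by -0.02 on the log2 scale between the KO groups, and both were lower there than in Control by less than the width of their bounds. Their mitochondrial counterparts were not called either. *Shmt2*, which takes the carbon of serine into mitochondrial folate, was at 60.8, 61.6 and 60.2 FPKM, and *Mthfd1l*, which releases formate from mitochondria, at 36.8, 35.7 and 37.2 FPKM. *Mthfd2*, the mitochondrial dehydrogenase and cyclohydrolase of embryonic and dividing cells, was at 37.5, 40.4 and 40.4 FPKM, and its relative *Mthfd2l* at 8.30, 8.80 and 9.09 FPKM. The log2 differences of these 4 were -0.02, 0.04, -0.11 and -0.08, all with intervals within 1.5-fold.

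For each of 3 pairs of related folate enzymes, the same gene was the higher one in every group. FPKM of *Shmt2* exceeded that of *Shmt1* by 1.69-fold (KO-NTD), 1.68-fold (KO-N) and 1.58-fold (Control), with separated bounds in each. *Mthfd2* exceeded *Mthfd2l* by 4.52-, 4.59- and 4.44-fold, again with separated bounds. *Mthfd1* exceeded *Mthfd1l* by 1.33-, 1.39- and 1.42-fold, with bounds that separated in KO-N and Control but overlapped in KO-NTD embryos. No stretch of 50 bases was shared within these 3 pairs.

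The enzymes that burn formyl groups off folate or feed them in from side routes were at low levels. *Aldh1l1*, the cytosolic formyltetrahydrofolate dehydrogenase, was at 0.179 FPKM (KO-NTD), 0.250 (KO-N) and 0.202 (Control), a log2 difference of -0.32 (95% interval -0.99 to 0.34). Its mitochondrial form *Aldh1l2* was at 0.502, 0.447 and 0.488 FPKM, a difference of 0.14 (-0.40 to 0.68). *Aldh1l2* was the higher of the pair in each group, with separated bounds in KO-NTD and Control but not in KO-N. *Mthfs*, which salvages formyl-folate and shares exons with a predicted coding gene on its own strand, was at 0.937, 0.844 and 0.998 FPKM. *Ftcd* was at 0.106, 0.0935 and 0.0643 FPKM.

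Genes that spend the carbon on nucleotides were abundant, and none was called. *Atic*, which completes the purine ring, was at 112 FPKM (KO-NTD), 108 (KO-N) and 114 (Control). *Gart*, the trifunctional purine enzyme that uses formyl-folate, was at 80.8, 78.1 and 81.1 FPKM. *Tyms*, the thymidylate synthase, was at 22.7, 22.7 and 22.8 FPKM, and its log2 difference of 0.00 had a 95% interval of -0.32 to 0.32. A pseudogene named after *Tyms* is annotated, and the sequence it shares with *Tyms* was not examined. *Atic* and *Gart* each differed by 0.05.

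The glycine cleavage system, whose loss is known to cause neural tube defects in mice, showed no member beyond 1.5-fold. *Gldc*, the glycine decarboxylase, was at 18.8 FPKM (KO-NTD, bounds 15.8 to 21.8), 16.9 (KO-N, 14.2 to 19.6) and 19.0 (Control, 16.0 to 22.0). *Amt*, the aminomethyltransferase that hands the carbon to folate, was at 23.9, 22.1 and 23.2 FPKM. The lipoyl carrier *Gcsh* was at 88.5, 83.2 and 83.1 FPKM, and *Dld*, the dihydrolipoamide dehydrogenase that also serves other complexes, at 72.6, 71.4 and 72.7 FPKM. All 4 log2 differences were positive, at 0.15 for *Gldc* (95% interval -0.16 to 0.47), 0.11 for *Amt*, 0.09 for *Gcsh* and 0.02 for *Dld*. Every interval held 0 and stayed within 1.5-fold.

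**Figure D3:**
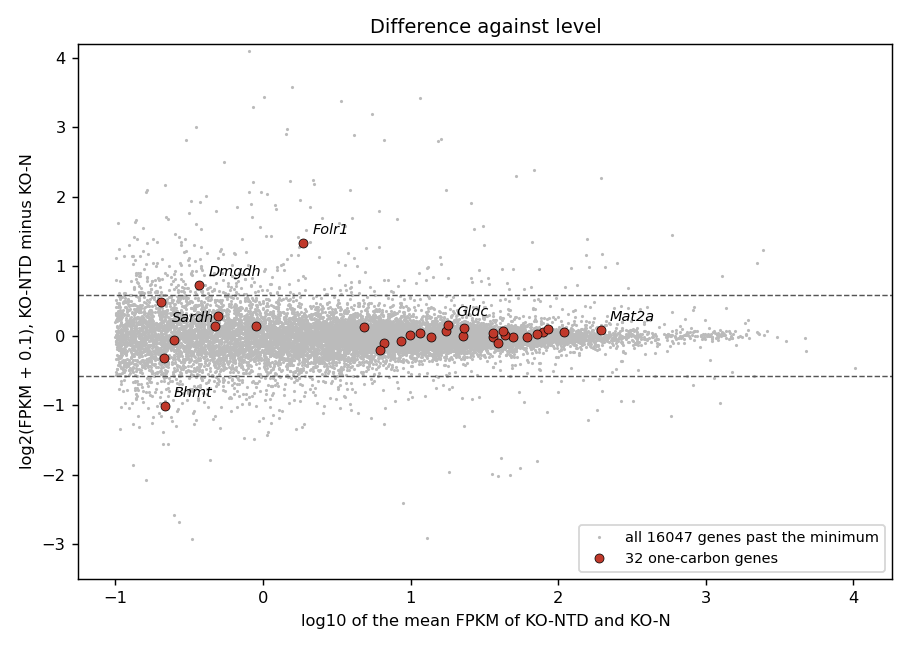
Difference of KO-NTD minus KO-N on the log2(FPKM + 0.1) scale against the log10 of the mean FPKM of the KO groups, for the 32 one-carbon genes read (red) and all 16047 genes that passed the minimum (grey); 119 genes beyond the range of -3.5 to 4.2 are not drawn, and dashed lines mark 1.5-fold. The one-carbon genes above 4 FPKM lie in the narrow middle of the cloud, and *Folr1*, *Dmgdh* and *Bhmt* lie outside the dashed lines at its low end.

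The methionine cycle had the most abundant gene of all. *Mat2a*, the catalytic subunit that makes S-adenosylmethionine, was at 201 FPKM (KO-NTD, bounds 169 to 233), 189 (KO-N, 159 to 219) and 196 (Control, 165 to 228), a level above that of 97.6% of the genes read. Its regulatory subunit *Mat2b* was at 44.0, 43.7 and 43.1 FPKM. *Ahcy*, which clears S-adenosylhomocysteine, was at 43.0, 40.9 and 41.8 FPKM. The cobalamin-dependent methionine synthase *Mtr* was at 11.7, 11.4 and 11.9 FPKM, and *Mtrr*, which reactivates it, at 10.02, 9.91 and 9.39 FPKM. These 5 genes differed by 0.01 to 0.09 on the log2 scale, and each interval stayed within 1.5-fold. *Cbs*, which takes homocysteine out of the cycle toward cysteine, was at 0.560, 0.440 and 0.570 FPKM, a difference of 0.29 (95% interval -0.38 to 0.96). In order of mean level over the KO groups, the most abundant of the 33 genes were *Mat2a*, *Atic*, *Gcsh*, *Gart*, *Dld*, *Shmt2*, *Mthfd1* and *Mat2b*, and the bounds of *Mat2a* overlapped with those of no other gene of the list.

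The other called genes belong to the route that remethylates homocysteine with choline-derived betaine instead of folate and then returns the remaining methyl groups to folate. *Bhmt* transfers a methyl group from betaine to homocysteine, which leaves dimethylglycine, and *Dmgdh* and then *Sardh* strip the methyl groups of dimethylglycine and sarcosine in mitochondria. *Bhmt* (chr13:93616891-93637758, minus strand, mm10) was at 0.109 FPKM (KO-NTD, bounds 0.0268 to 0.192), 0.324 (KO-N, 0.162 to 0.487) and 0.179 (Control, 0.0681 to 0.290). KO-N was thus the highest and KO-NTD the lowest, 2.96-fold apart, but their bounds overlapped, and the log2 difference was -1.02 (95% interval -1.80 to -0.24). *Dmgdh* (chr13:93674436-93752823, plus strand, mm10) was at 0.486 FPKM (KO-NTD, 0.295 to 0.677), 0.252 (KO-N, 0.124 to 0.381) and 0.431 (Control, 0.255 to 0.608). Here KO-N was the lowest and the other groups overlapped almost fully. KO-NTD exceeded KO-N by 1.93-fold, with bounds that overlapped and a log2 difference of 0.73 (95% interval 0.04 to 1.43). *Sardh* was at 0.255, 0.154 and 0.193 FPKM, with KO-N lowest as for *Dmgdh*, but was not called, at 0.48 (-0.11 to 1.06).

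**Figure D4:**
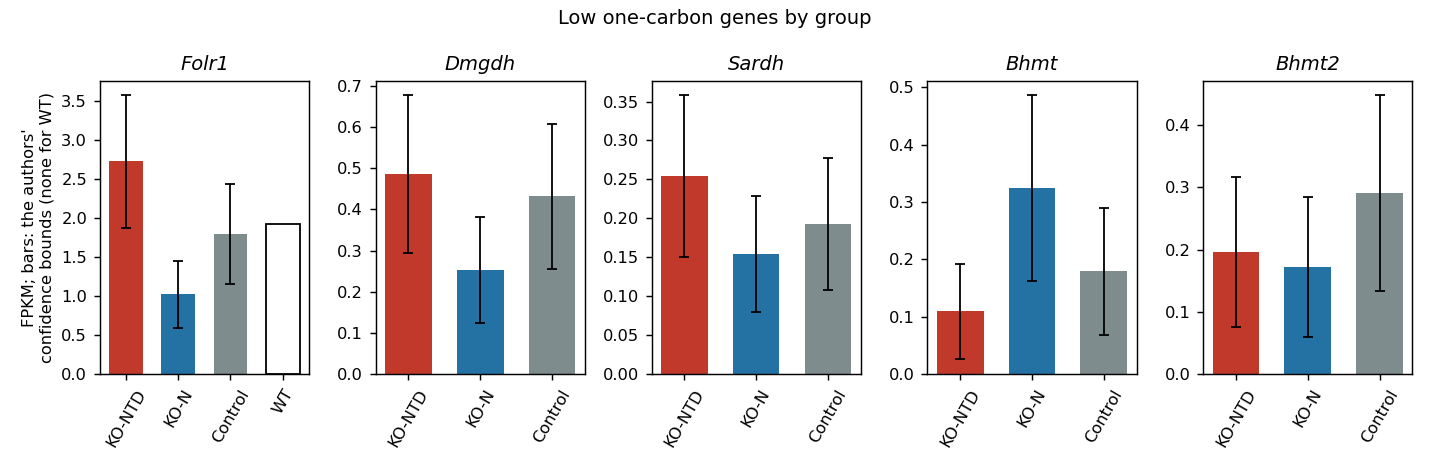
FPKM of *Folr1*, *Dmgdh*, *Sardh*, *Bhmt* and the related gene *Bhmt2* in KO-NTD, KO-N and the column headed Control, and in WT for *Folr1*; columns are the group values on linear axes of their own, and bars the authors' confidence bounds, which WT lacks. KO-N is the lowest group for *Folr1* (1.02), *Dmgdh* (0.252) and *Sardh* (0.154) and the highest for *Bhmt* (0.324), and only the KO bars of *Folr1* are apart.

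*Bhmt* and *Dmgdh* are neighbours on chromosome 13, with *Bhmt2*, a methyltransferase that uses S-methylmethionine, between them. *Bhmt2* lies 18.3 kb from *Bhmt* and starts 133 bases from *Dmgdh* on the other strand. *Bhmt2* was at 0.196 FPKM (KO-NTD), 0.172 (KO-N) and 0.291 (Control), with a log2 difference of 0.12 (95% interval -0.70 to 0.95) between the KO groups, an interval that spans 0. Its level was above that of *Bhmt* in KO-NTD and Control and below it in KO-N embryos, with overlapping bounds in each group. The promoter windows of the called neighbours are shown because these genes lie side by side and were called in opposite directions. They are RefSeq sequences of GRCm38.p6, from 250 bases before to 50 after the start, Dmgdh from chr13:93674186-93674485 (plus strand) and Bhmt from chr13:93637709-93638008 (minus strand). Capitals mark the 133 bases between the starts of *Bhmt2* and *Dmgdh* in the former, and each AGGTCA, with the longer CAAAGGTCA that holds one of them, in the latter.

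Dmgdh promoter: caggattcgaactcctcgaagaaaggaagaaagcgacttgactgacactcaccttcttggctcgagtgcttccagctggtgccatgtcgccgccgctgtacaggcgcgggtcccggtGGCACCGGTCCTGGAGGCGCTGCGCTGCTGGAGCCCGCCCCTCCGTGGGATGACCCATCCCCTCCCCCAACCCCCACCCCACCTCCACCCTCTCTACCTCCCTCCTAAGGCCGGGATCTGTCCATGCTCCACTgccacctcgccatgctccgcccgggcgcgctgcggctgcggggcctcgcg

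Bhmt promoter: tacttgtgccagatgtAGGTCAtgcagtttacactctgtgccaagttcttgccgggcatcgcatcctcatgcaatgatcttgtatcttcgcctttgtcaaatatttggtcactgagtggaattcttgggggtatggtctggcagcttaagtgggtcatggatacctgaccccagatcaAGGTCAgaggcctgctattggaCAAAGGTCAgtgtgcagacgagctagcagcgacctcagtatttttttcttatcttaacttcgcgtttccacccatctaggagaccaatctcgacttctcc

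The *Dmgdh* window held 25 CpG, more than 81.6% of 32817 promoters of 300 bases, and the *Bhmt* window held 8, near the median of 7. GGGCGG, the core of a GC box, occurred 2 times in the *Dmgdh* window on either strand and not in that of *Bhmt*. At least 1 such site stood in 35.6% of the promoters. AGGTCA, the half-site of many nuclear receptors, occurred 3 times in the *Bhmt* window, and 16.3% of the promoters held it at least 1 time. How many promoters hold either motif as often as these windows was not counted. CAAAGGTCA, a form of the sites that HNF4A, a nuclear receptor of visceral endoderm and liver, is known to bind, occurred 1 time in the *Bhmt* window, and 0.478% of the promoters held it. TATAAA was in neither window and in 13.6% of the promoters. The motifs were chosen after the sequences had been seen, and a match says only that these letters stand in the window. Of the 33 genes, 29 had a promoter entry, *Folr1* not among them.

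The level of *Bhmt* is uncertain for a further reason. Its longest reading frame shares 10 of 1175 stretches of 50 bases with that of *Bhmt2*, in the run below (GENCODE M21, no letter in capitals), and 776 of 1175 (66.0%) with the processed pseudogene *Bhmt-ps1* on another chromosome. Reads from these stretches cannot be assigned to 1 source by sequence, and the pseudogene was not analysed here. The exons of *Bhmt* and of *Dmgdh* also each overlap a noncoding gene on the opposite strand.

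Bhmt and Bhmt2, longest shared run: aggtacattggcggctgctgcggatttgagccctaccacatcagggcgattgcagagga

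Set against the column headed Control, the KO groups gave different counts. Between KO-N and Control, 3 of 32 one-carbon genes were called, *Bhmt* higher and *Folr1* and *Dmgdh* lower, where 2.51% of all genes were called in either direction. The log2 differences of KO-N minus Control were 0.60 for *Bhmt* (95% interval -0.18 to 1.38), -0.75 for *Folr1* (-1.47 to -0.03) and -0.59 for *Dmgdh* (-1.29 to 0.10). Between KO-NTD and Control, 0 of 32 were called, where 4.56% of all genes were. For *Bhmt*, *Folr1* and *Dmgdh* KO-NTD minus Control was -0.41, 0.58 and 0.14. *Folr1* fell just short of the 1.5-fold cutoff there, and *Bhmt* and *Dmgdh* passed it only narrowly between KO-N and Control. The difference in counts therefore depends on where the cutoff lies. The comparisons share the KO-N, KO-NTD and Control values among them, so they do not add to each other, and the libraries behind Control are not given in the sources used here. Control lay between the KO groups for 14 of the 33 genes.

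Genes that feed or draw on the pathway outside the 33 were not called between the KO groups. Of 46 such genes in 6 lists, 44 passed the minimum and 0 were called in either direction, where 2.67% of all genes were called higher and 2.40% lower. They had a median log2 difference of 0.00 and a range of -0.26 to 0.49. Intervals stayed within 1.5-fold for 33 of the 44, beside 55.8% of all genes. The share was 82.8% among all genes that averaged 4 FPKM or more, the level of most of these genes. Bounds were too wide to inform for some, as for *Gamt* at 0 to 46.2 FPKM in KO-NTD. Serine synthesis (3 genes, median -0.06) was led in level by *Psat1*, the phosphoserine aminotransferase, at 146 FPKM (KO-NTD) and 152 FPKM (KO-N), and *Phgdh*, its first enzyme, at 74.8 and 81.8 FPKM. Other folate genes (5, median -0.03) included *Qdpr*, a pteridine reductase, at 36.6 and 40.8 FPKM. Cobalamin uptake and processing (9, median -0.01) was led by *Mmadhc* at 65.5 and 67.6 FPKM and *Mmachc* at 26.7 and 27.3 FPKM, which both handle cobalamin inside the cell. Choline and betaine genes (7 of 8 read, median 0.08) were led by *Aldh7a1*, a betaine aldehyde dehydrogenase, at 29.6 and 26.7 FPKM and *Pcyt1a*, of phosphatidylcholine synthesis, at 17.2 and 19.0 FPKM. Transsulfuration and methyl group users (10 of 11 read, median -0.05) were led by *Mtap*, of methionine salvage, at 77.0 and 80.9 FPKM and the DNA methyltransferase *Dnmt1* at 66.6 and 67.9 FPKM. Purine synthesis (10, median 0.00) was led by *Impdh2*, of guanine nucleotide synthesis, at 229 and 228 FPKM and *Paics* at 221 and 224 FPKM. *Bhmt2* belongs to the choline list, and *Chdh*, the choline dehydrogenase that makes betaine aldehyde, gave the upper end of the range at 0.156 and 0.0820 FPKM (0.49, 95% interval -1.42 to 2.40).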

How the data were processed

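Poly-A RNA of 9 pooled embryo samples (3 WT, 3 KO-N, 3 KO-NTD) was sequenced by the authors as strand-specific single-end libraries with 50 base reads. According to the study's methods and the submitters' processing notes, reads were mapped to mm10 with TopHat2 0.7 and FPKM were estimated with Cufflinks 2.2.1. Which gene annotation served for this stands in none of the sources read. Deposited FPKM are 1 value per group, combined by the authors from its libraries, and the deposited confidence bounds of each FPKM come from the same step. The authors' 3 comparison tables also hold log2 fold changes, test values, p-values, q-values and significance marks, of which none was used. The column prefixed Ko, which stands beside another prefixed Ntd, was read as KO-N from its header. Its values and those of Ntd equalled the KO-N and KO-NTD values of the comparison table of these groups within 0.1% for 779 of 779 genes.

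Of 24357 rows, 27 with names turned into dates were left out. Differences were taken as log2(FPKM + 0.1) for genes that averaged 0.1 FPKM or more. The error of an FPKM was the distance to its upper bound divided by 2. It was divided by FPKM + 0.1, which makes it smaller for low genes. The errors of both groups were combined as the root of their summed squares and put on the log2 scale, giving the standard error. The 95% intervals were 1.96 standard errors to each side. They cover the error that the authors' software put into its bounds, and how much of it is spread between pools is not known here. A limma fit was planned for single-library values and could not be made. The steps were tested on simulated data, for genes of at least 1 FPKM with the same small relative error for every gene. *Dmgdh* and *Bhmt* lie below that level, and bounds as wide as those of the called genes were not simulated. The test therefore says nothing of how well the intervals of the called genes cover. The 33 genes, the other lists and the rule for named genes were chosen with earlier results of these data known. By that rule, full values were given for genes past 1.5-fold, with separated bounds or with a WT value, for the 8 most abundant of the 33 and for both genes of each related pair, and from each further list for the 2 most abundant genes when none was past 1.5-fold. A gene that this rule selects is not reported here. *Chdh* and the named markers were added after their values were seen. Other pseudocounts, minimums, folds, scalings and sources of the values were tried. Sequences were taken from RefSeq (GRCm38.p6) and GENCODE M21, of the same build as mm10, in which all 33 genes matched a coding gene. Python 3.11.15, numpy 2.4.6 and pandas 2.3.3 were used.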

Additional observations from a re-analysis of the deposited data

How the results depend on the processing

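The count of one-carbon genes higher in KO-NTD relative to KO-N embryos fell from 2 to 1, *Folr1* alone, with a pseudocount of 1 FPKM, a minimum mean of 1 FPKM, a 2-fold threshold or separated bounds as the criterion. It rose to 3 with no pseudocount, where *Sardh* was added, and to 3 at the lowest fold threshold tried. The count lower fell from 1 to 0 with a pseudocount of 1 FPKM, the minimum of 1 FPKM or separated bounds, and rose to 2 at that lowest threshold. At a pseudocount of 1 FPKM the log2 difference was 0.88 for *Folr1*, 0.25 for *Dmgdh*, 0.12 for *Sardh* and -0.26 for *Bhmt*, and with none it was -1.57 for *Bhmt*, since a pseudocount shrinks low values by construction. Of 102 alternatives run on single genes, 97 moved the value by less than 1 standard error. The 5 that moved it further were changes of pseudocount in *Folr1*, *Dmgdh*, *Sardh* and *Bhmt*, so every called gene was among them. The direction of a called gene changed in 0, which these alternatives could not have shown otherwise. A pseudocount cannot turn a sign, and the other alternatives shifted the values little or not at all. The median log2 difference over the genes ranged from 0.03 to 0.06 over its alternatives. Leaving out each replicate in turn could not be run with 1 value per group. No paired analysis was possible because the columns carry no replicate numbers. Genes under 4 FPKM are limited by wide bounds, and the depth of single libraries is not known from the tables used here.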
